A study of Homo sapiens with 14 samples.

Results

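Expandable pancreatic progenitors (ePPs) were set beside pancreatic progenitors made directly by stepwise differentiation (PP2), to ask which pathways and which cell-type signals separate progenitors that had been propagated from progenitors that had not. The comparison used 5 of the 14 RNA-seq libraries of the series, chosen by their titles: 2 of ePPs at passage 9 (ePP-P9), 2 of ePPs at passage 21 (ePP-P21) and 1 of PP2. All came from MEL1, a human embryonic stem cell line, which the study used as a reporter with GFP in 1 insulin allele, so a single genetic background was sampled. PP2 cells had been taken through definitive endoderm and foregut stages as suspended aggregates. Over these stages the media held activin A, CHIR99021 (a Wnt pathway activator), the TGFβ inhibitor A83-01, KGF, the retinoid TTNPB and EGF. The ePPs had been grown on a feeder layer in EF6I medium, which holds EGF, bFGF, a TGFβ receptor inhibitor and I-BET151 (an inhibitor of BET bromodomain proteins). Culture format, medium, feeders and drug therefore all differ along with the label. The labels place PP2 in batch 1 and the ePPs in batch 2, so what belongs to the cells and what to the batch cannot be told apart. PP2 had 1 library, no test was made, and nothing in the labels says that the 2 libraries of a passage were separate cultures.

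Pancreatic progenitors are the cells of the embryonic gut tube that carry the transcription factors PDX1 and NKX6-1 and give rise to acinar, ductal and endocrine cells. EGF and FGF signals keep them dividing, Notch holds back their endocrine differentiation, and retinoic acid, BMP, Wnt, Hedgehog and TGFβ signals pattern the gut tube and the mesenchyme around it. BET proteins read acetylated histones and pass the signal on to the elongation factor P-TEFb.

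The deposited values are transcript abundances (TPM), which divide the reads of a gene by its transcript length and scale each library to the same total. Differences are given as ePP minus PP2 on the log2(TPM + 1) scale, averaged over the 4 ePP libraries, and a scale of this kind understates the difference of genes at low TPM. Of 60624 listed genes, 18121 reached 1 TPM in PP2 or in the ePP mean and were kept. Means over the 4 ePP libraries are given ± SD (n = 4). A value given as 0 TPM was listed at 0 in the file, and no fold is given against a group listed at 0 throughout. The number of genes at 1 TPM or more was 17240 in PP2 and 14982 to 16061 in the ePPs. Ribosomal protein genes took 10.3% of the listed TPM in PP2 and 18.1% to 21.5% in the ePPs. TPM keeps no read number, so the depth of the libraries is unknown. Because the RNA came from whole cultures, fewer cells of a type and less RNA per cell cannot be told apart.

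The differences moved with the base composition of the gene, and this has to be read beside every value below. Among protein-coding genes the median difference went from 0.38 in the fifth with the lowest GC content to -1.37 in the fifth with the highest. The comparison of β-like cells made from ePPs (ePP-β, 2 libraries, batch 2) with β-like cells made directly (SC-β, 1 library, batch 1) spans the same 2 batches and shares no library with that of ePP and PP2. There the medians went from 0.87 to -1.15. Against the mean of all 14 libraries, the level of the genes lowest in GC content less that of the highest was -1.08 in PP2, -1.32 in SC-β, -0.66 in undifferentiated cells (hPSC) and -0.33 in definitive endoderm (DE), the 4 libraries of batch 1. It was 0.65 to 0.85 in the ePPs and 0.73 to 0.74 in ePP-β. In batch 3 it was -0.69 and 0.29 in the 2 DMSO libraries and -0.86 and 0.61 in the 2 I-BET151 libraries, so libraries of the same condition and batch differed in sign. A GC-adjusted difference is therefore given beside the deposited one for many lists and for some genes. It is the difference less the median of kept genes of like GC content, taken in 20 bins in each library. Values given in TPM alone are not adjusted. This adjustment was chosen after seeing the data. Whether the gradient stems from library preparation or from the cells was not tested.

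**Figure D1:**
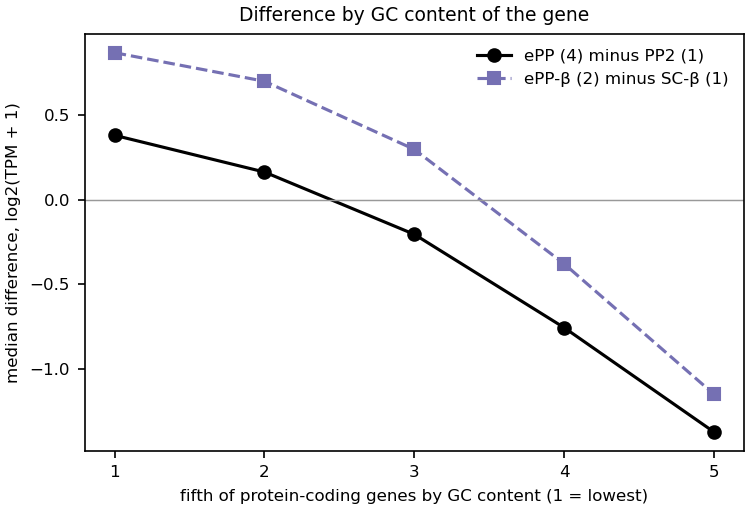
Median difference on the log2(TPM + 1) scale in 5 equal groups of kept protein-coding genes ordered by GC content, for ePP minus PP2 (filled circles) and for ePP-β minus SC-β (squares). Both lines descend from left to right, from 0.38 to -1.37 and from 0.87 to -1.15.

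More genes were lower than higher in the ePPs. All 4 ePP libraries lay above PP2 for 29.6% of the kept genes (5356), all 4 lay below for 49.8% (9017), and the remaining 20.7% (3748) had ePP libraries on both sides. With a mean difference beyond 1 as well, 1508 genes were higher (8.32%) and 4855 were lower (26.8%). Beyond 2 there were 229 higher (1.26%) and 1679 lower genes (9.27%). The median over all kept genes was itself shifted, to -0.27, and lay between -0.40 and -0.13 in single ePP libraries. List medians below are best read against it, and list counts against the 29.6% above and 49.8% below. Centring every library on its median gave 3013 higher and 3266 lower genes, and the GC adjustment gave 1890 higher (10.5%) and 2631 lower (14.6%). Of the genes called on the deposited values, 70.5% of the higher and 48.9% of the lower genes were called again after the GC adjustment. The split between higher and lower thus depended on the scaling. A gene's SD over the 4 ePP libraries had a median of 0.199, against a median size of difference from PP2 of 0.715. Of the kept genes, 2561 reached 1 TPM only in PP2 and 881 only in the ePPs. These were kept through that side alone, which fixed the side on which their mean TPM was higher.

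The same genes were read in the other comparisons. Of the higher genes, in 81.7% both ePP-β libraries also exceeded SC-β, a pattern that 49.3% of all kept genes showed. Of the lower genes, in 74.7% both also fell short of SC-β, against 39.3% of all kept genes. For genes called after a GC adjustment of both comparisons, these shares were 66.0% (higher) and 66.6% (lower), against 42.1% and 42.1% of all genes. In progenitors kept for 7 days with 1 μM I-BET151 or with DMSO (batch 3, 2 same-numbered pairs), 46.2% of the higher genes were above DMSO in both pairs and 32.4% were below, against 48.3% and 27.7% of all kept genes. For the lower genes these shares were 32.8% and 40.9%. On the deposited values the likeness was thus closest where the batches were the same. The ePP-β were also grown from ePPs, so origin and batch cannot be told apart there.

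PDX1, NKX6-1 and SOX9 were well above 10 TPM in both kinds of progenitor. PDX1, the homeodomain factor that marks the pancreatic bud, was at 251 TPM in PP2, 133 and 130.2 TPM in ePP-P9 and 124 and 134 TPM in ePP-P21. All 4 ePP libraries lay below PP2, with a difference of -0.94, but after the GC adjustment the difference was 0.12, so its direction was not settled. NKX6-1, which marks progenitors able to form β cells, was at 23.5 TPM in PP2, 204 and 213 TPM in ePP-P9 and 176 and 209.8 TPM in ePP-P21. The ePP libraries all lay above PP2, with a difference of 3.04 (3.76 after the GC adjustment). MNX1, a homeobox factor of the early bud, was at 37.2 TPM in PP2 and 77.9 ± 6.73 TPM in the ePPs. GLIS3, a zinc-finger factor needed for endocrine and ductal cells, was at 2.81 TPM in PP2 and 13.8 ± 1.54 TPM in the ePPs. SOX9, which maintains the progenitor pool, was at 107 TPM in PP2 and 133 and 136 TPM in ePP-P9 and 106 and 161 TPM in ePP-P21, so PP2 lay inside the ePP range. ONECUT1 (HNF6) was at 10.8 TPM in PP2, 12.4 and 12.3 TPM in ePP-P9 and 22.3 and 29.6 TPM in ePP-P21, with both passage 21 libraries above both passage 9 libraries. FOXA2, an endoderm pioneer factor, was at 201 TPM in PP2 and 84.3 ± 11.3 TPM in the ePPs, a difference of -1.25 that shrank to -0.19 after the GC adjustment.

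Other members of the progenitor list were far lower. PTF1A, which directs acinar fate and marks the multipotent progenitor, was at 21 TPM in PP2, 0.0519 and 0.119 TPM in ePP-P9 and 0 and 0 TPM in ePP-P21. HHEX, a homeobox factor of the ventral foregut, was at 476 TPM in PP2 and 16.8 and 21.5 TPM in ePP-P9 and 32.7 and 47 TPM in ePP-P21. The difference was -4.07, and the passage 21 libraries stood above the passage 9 libraries. DLK1, an imprinted Notch-family ligand of fetal tissue, was at 499 TPM in PP2 and 10.4 ± 2.77 TPM in the ePPs, a difference of -5.48. PROX1, a homeobox factor of liver and pancreas buds, was at 14.5 TPM in PP2 and 4.09 ± 1.38 TPM in the ePPs. PTF1A, HHEX, DLK1 and PROX1 were lower in all 4 ePP libraries. Over the whole list, 19 of 19 members were kept, 8 lay above PP2 in all 4 libraries (29.6% of all kept genes did), 7 lay below (49.8% did) and 4 lay on both sides. The median was 0.11, or 0.54 after the GC adjustment, against -0.27 for all kept genes.

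**Figure D2:**
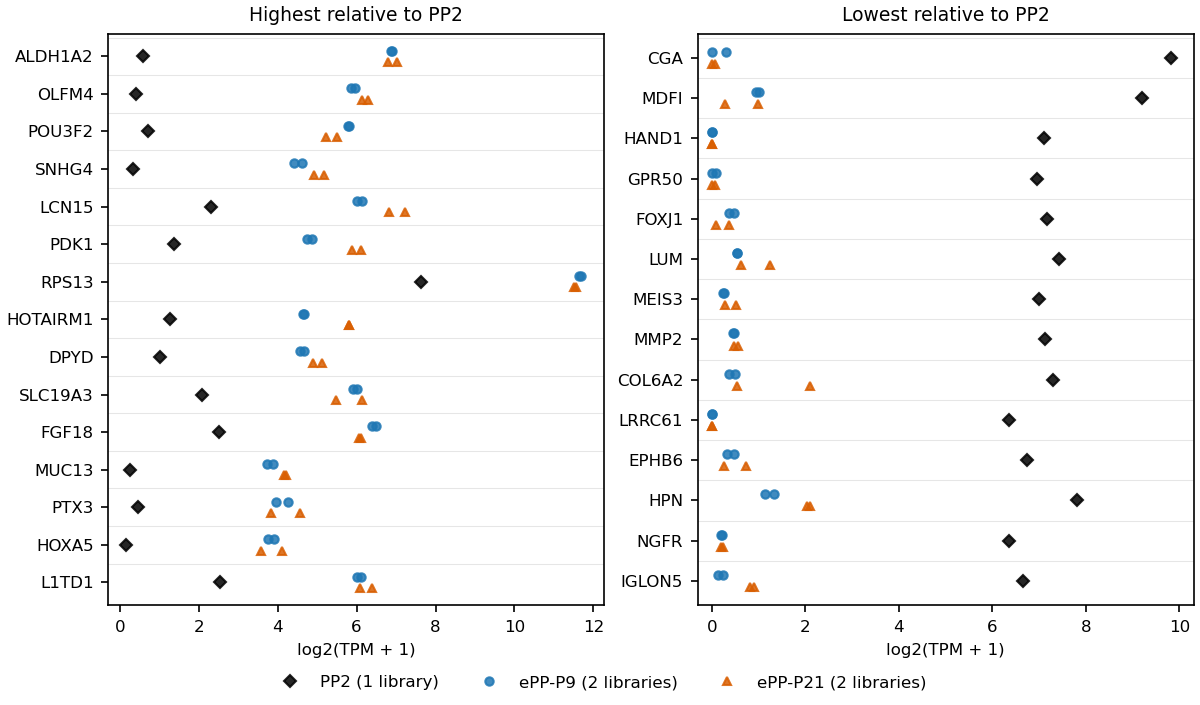
Level on the log2(TPM + 1) scale in each library of the 15 genes furthest above PP2 (left) and of 14 of the 15 furthest below it (right, leaving out a gene known only by an identifier). Diamonds are PP2, circles ePP-P9 and triangles ePP-P21. Only genes with all 4 ePP libraries on the same side of PP2 could be chosen, so PP2 lies outside their span by the rule.

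The genes furthest above PP2, among protein-coding genes and long noncoding RNAs with 10 TPM or more on the higher side, came from several functions. ALDH1A2, the enzyme that makes retinoic acid in the embryo, was at 0.501 TPM in PP2, 116 and 117 TPM in ePP-P9 and 111 and 129 TPM in ePP-P21, the widest gap of these (6.31, and 6.36 after the GC adjustment). OLFM4, a secreted glycoprotein of intestinal stem cells and a Notch target there, was at 0.329 TPM in PP2 and 57.2 and 60.8 TPM in ePP-P9 and 77 and 69.7 TPM in ePP-P21. POU3F2, a POU factor best known from neurons, was at 0.623 TPM in PP2 and 55.2 and 54 TPM in ePP-P9 and 36.2 and 44.5 TPM in ePP-P21. In each case the 4 ePP libraries stood close together and far from PP2. LCN15, a lipocalin of gut epithelium, was at 3.99 TPM in PP2 and between 62.9 and 147 TPM in the ePPs. MUC13, a gut transmembrane mucin, was at 0.188 TPM and between 12.2 and 17.5 TPM. FGF18, an FGF ligand, was at 4.67 TPM in PP2 and between 65.8 and 88.9 TPM in the ePPs. In the I-BET151 libraries of batch 3, FGF18 was at 339 and 86.8 TPM, against 74.6 and 43.6 TPM in the same-numbered DMSO libraries. OLFM4 and POU3F2 also lay above DMSO in both pairs, and ALDH1A2, LCN15 and MUC13 lay below. LCN15 was at 678 and 621 TPM in DMSO and 228 and 93.8 TPM in I-BET151. MUC13 was at 582 and 880 TPM in DMSO, 72.6 and 205 TPM in I-BET151 and 496 and 521 TPM in ePP-β.

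The rest of the 15 were PTX3 (a secreted pattern-recognition protein), SLC19A3 (a thiamine transporter), DPYD (pyrimidine breakdown), PDK1 (a brake on pyruvate oxidation), L1TD1 (an RNA-binding protein of pluripotent cells), HOXA5, RPS13 and the noncoding RNAs HOTAIRM1 and SNHG4. PDK1 separated the passages, at 1.59 TPM in PP2, 25.6 and 28 TPM in ePP-P9 and 67.5 and 58.4 TPM in ePP-P21. HOTAIRM1, transcribed from the HOXA cluster, did so too, at 1.43 TPM in PP2 and 24.3 and 23.8 TPM in ePP-P9 and 54.6 and 55 TPM in ePP-P21. RPS13, a protein of the small ribosomal subunit, was at 197 TPM in PP2 and 3323 and 3164 TPM in ePP-P9 and 2895 and 3022 TPM in ePP-P21. Ribosomal protein genes have many near-identical pseudogenes that can share reads, so single values of this family are uncertain. Among these 15 genes the differences ran from 3.62 (L1TD1) to 6.31, and after the GC adjustment from 3.33 (L1TD1) to 6.36.

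The genes furthest below PP2, by the same rule, included matrix genes, receptors and genes of tissues outside the pancreas. CGA, the shared α subunit of the glycoprotein hormones, was at 901 TPM in PP2, 0.24 and 0 TPM in ePP-P9 and 0.0491 and 0 TPM in ePP-P21. The SC-β library had 6.58 TPM and no other library in the series exceeded 1.12 TPM, so PP2 stood far above the other 13 libraries. MDFI, an inhibitor of myogenic factors, was at 591 TPM in PP2 and 0.912 and 1.0 TPM in ePP-P9 and 0.982 and 0.221 TPM in ePP-P21. HAND1, a factor of lateral mesoderm, was at 136 TPM in PP2 and listed at 0 in all 4 ePP libraries. FOXJ1, which switches on genes of motile cilia, was at 142 TPM in PP2 and 0.383 and 0.287 TPM in ePP-P9 and 0.297 and 0.0591 TPM in ePP-P21. GPR50, an orphan receptor related to the melatonin receptors, was at 124 TPM and at most 0.0612 TPM. NGFR, a neurotrophin receptor found on neural crest and on mesenchymal cells, was at 81.2 TPM in PP2 and 0.163 ± 0.0171 TPM in the ePPs. The next 3 belong to the extracellular matrix. LUM, the proteoglycan lumican, was at 171 TPM in PP2 and at no more than 1.38 TPM in any ePP library. MMP2, a matrix protease, was at 138 TPM and no more than 0.483 TPM. COL6A2, a collagen VI chain, was at 157 TPM and no more than 3.29 TPM. MEIS3, EPHB6, HPN, IGLON5 and LRRC61 completed the list with a gene that has no symbol. LRRC61 was listed at no more than 0.114 TPM in the 6 libraries of batch 2 and at 30.4 to 80.5 TPM in the 8 libraries of the other batches.

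Markers of other cell types were next counted by list, and stromal markers were lower in the ePPs. Of 20 mesenchyme markers 19 were kept, and 16 of them lay below PP2 in all 4 ePP libraries, each by over 1, where 49.8% of all kept genes lay below and 26.8% did so by over 1. Their median difference was -3.89 (-3.57 after the GC adjustment). COL3A1, a fibrillar collagen of loose stroma, was at 779 TPM in PP2, 24.7 and 26 TPM in ePP-P9 and 36 and 24.8 TPM in ePP-P21. DCN (decorin) was at 17.9 TPM in PP2 and 0.012 and 0.012 TPM in ePP-P9 and 0.14 and 0.0198 TPM in ePP-P21. All 4 ePP libraries were below PP2 by a wide margin for both. COL5A1, a minor fibrillar collagen, was at 75.1 TPM in PP2 and 0.20 ± 0.0402 TPM in the ePPs. THY1, a surface protein of fibroblasts, was at 24.2 TPM in PP2 and 0.0312 ± 0.0458 TPM in the ePPs. PDGFRA, a growth factor receptor of stromal cells, was at 20.2 TPM in PP2 and between 0.152 and 1.35 TPM in the ePPs. Of the 19 kept markers 8 reached 1 TPM in PP2 alone.

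Against this, VIM, the intermediate filament of mesenchymal and of cultured cells, was higher. It was at 381 TPM in PP2, 1351 and 1372 TPM in ePP-P9 and 1586 and 1725 TPM in ePP-P21, a difference of 1.97. ACTA2, smooth muscle actin, was at 35.2 TPM in PP2 and 68.1 ± 5.42 TPM in the ePPs. These 2 were the members above PP2. The summed TPM of the mesenchyme list was 5865 in PP2 and 2155 to 3029 in the ePPs, and without VIM it was 5484 and 804 to 1317. In the β-like cells the same sum without VIM was 4280 in SC-β and 572 to 614 in ePP-β, and the median GC-adjusted difference of the list was -3.84. The sum without VIM was 1242 in hPSC and 586 in DE, 2 further libraries of batch 1, so within batch 1 the PP2 and SC-β libraries stood above the other pair. FOXF1, a Hedgehog-responsive factor of gut mesenchyme, was at 15.7 TPM in PP2 and 29.8 TPM in SC-β, and at no more than 0.0363 TPM in the ePPs.

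Endothelial markers were lower as well, with an exception. All 12 of 12 were kept, 9 of them through PP2 alone. Of these 12, 11 lay below PP2 in all 4 ePP libraries (49.8% of all kept genes did). The median was -2.12 (-2.05 after the GC adjustment). CDH5 (VE-cadherin), the junction protein of endothelium, was at 22.3 TPM in PP2 and listed at 0 in all 4 ePP libraries. KDR, the main VEGF receptor of endothelium, was at 35.4 TPM in PP2, 0.0189 and 0.0424 TPM in ePP-P9 and 0.0356 and 0 TPM in ePP-P21. TEK, the receptor of the angiopoietins, was at 19.6 TPM in PP2 and 0.619 ± 0.173 TPM in the ePPs. FLT1, a VEGF receptor that binds the ligand without strong signalling, went the other way, at 8.26 TPM in PP2 and 50.4 and 52.1 TPM in ePP-P9 and 59.7 and 59.2 TPM in ePP-P21. FLT1 was also at 17.5 and 12.1 TPM in DMSO and 22.1 and 42.5 TPM in I-BET151, where CDH5 did not exceed 0.733 TPM. Of 12 blood and immune markers only 5 were kept, and TYROBP, an adaptor of myeloid cells, was at 26.4 TPM in PP2 and listed at 0 in all 4 ePP libraries.

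Liver-type secreted proteins were lower, with a median of -3.93 (-2.91 after the GC adjustment). Of 18 genes 16 were kept, 4 through PP2 alone. Of the 16, 15 lay below PP2 in all 4 ePP libraries (49.8% of all kept genes did). Their summed TPM was 6458 in PP2 and 653 to 918 in the ePPs. AFP, the fetal albumin of liver and yolk sac, was at 1646 TPM in PP2, 84.9 and 96.1 TPM in ePP-P9 and 105 and 113 TPM in ePP-P21. TTR, the thyroxine carrier made by liver and by islet cells, was at 749 TPM in PP2 and 11.1 and 14.4 TPM in ePP-P9 and 22.5 and 18.4 TPM in ePP-P21. APOA2, an HDL apolipoprotein, was at 838 TPM in PP2 and 24.5 ± 5.34 TPM in the ePPs. For all 3 the ePP libraries stood far below PP2 and close to each other. The fibrinogen chains FGA, FGB and FGG were at 82.3, 207 and 49.4 TPM in PP2, and all were higher in ePP-P21 than in ePP-P9, as for FGB at 2.2 and 1.72 TPM against 10.2 and 8.44 TPM. ALB was at 10.1 TPM in PP2 and at no more than 0.891 TPM in the ePPs. In the β-like cells the GC-adjusted median of the list was -0.37 for ePP-β minus SC-β, nearer to 0. In batch 3, AFP was at 5526 and 5198 TPM in DMSO and 617 and 1871 TPM in I-BET151.

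**Figure D3:**
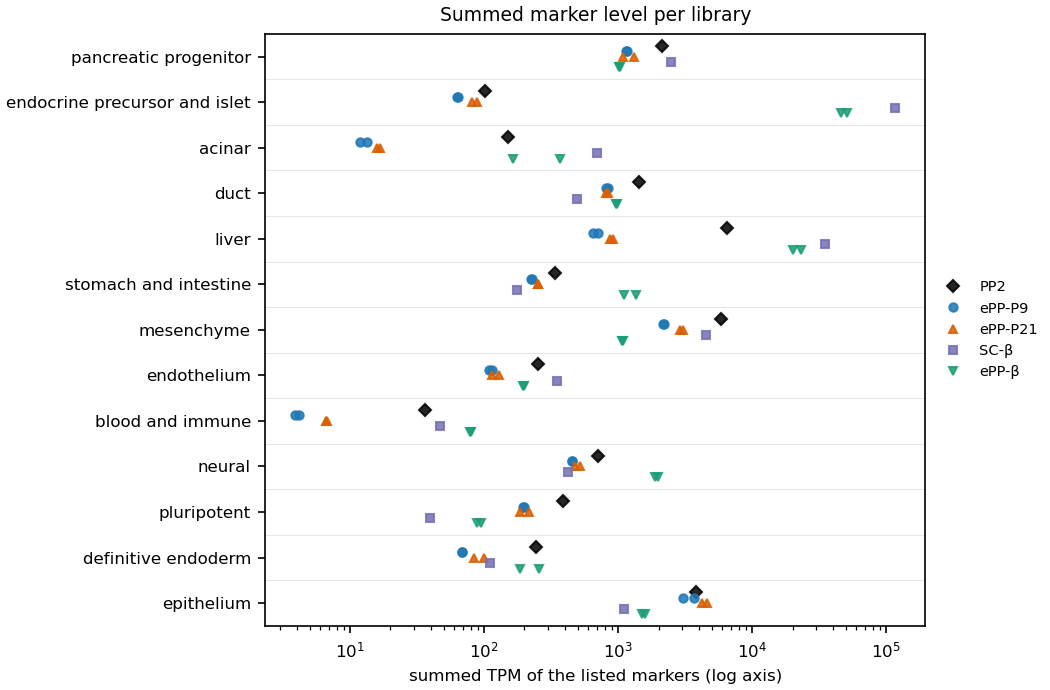
Summed TPM (log axis) of 13 lists of cell-type markers in PP2, the 4 ePP libraries, SC-β and the 2 ePP-β libraries, with 1 point per library. The mesenchyme and liver sums of PP2 (5865 and 6458) lie above all 4 ePP libraries (up to 3029 and 918), while the epithelium sum of PP2 (3840) lies inside the ePP range of 3053 to 4634.

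Most kept endocrine markers were lower in the ePPs, as the filter required for 6 of them. Of 23 genes 10 were kept, 6 of them through PP2 alone. Of the 10, 7 lay below PP2 by over 1 (26.8% of all kept genes did). The median was -1.68, or -1.01 after the GC adjustment. With 1 TPM required in at least 2 of the 5 libraries, 4 genes were left and the median was 0.62. NEUROG3, the factor that starts endocrine differentiation, was at 4.28 TPM in PP2, 0.409 and 0.297 TPM in ePP-P9 and 0.153 and 0.376 TPM in ePP-P21. INSM1, a zinc-finger factor of endocrine precursors, was at 31.4 TPM in PP2 and 0.421 and 0.88 TPM in ePP-P9 and 0.533 and 0.553 TPM in ePP-P21, with all 4 libraries under 1 TPM. CHGA (chromogranin A), a granule protein, was at 28.1 TPM in PP2 and 4.4 ± 1.04 TPM in the ePPs. The later factors NKX2-2 and NEUROD1 stayed under 1 TPM in both groups. Insulin was listed at 0 in PP2 and at no more than 0.0104 TPM in the ePPs (INS). SCGN (secretagogin), a calcium sensor of islet cells, was higher, at 9.8 TPM in PP2 and 39.2 and 38.6 TPM in ePP-P9 and 45 and 45.6 TPM in ePP-P21. RFX6, which acts in endocrine specification and in gut endoderm, was at 13.2 TPM in PP2 and 16.3 and 17.5 TPM in ePP-P9 and 27.9 and 33.4 TPM in ePP-P21.

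Acinar markers were lower, and duct markers were divided. Of 15 acinar genes 6 were kept, and 3 of them passed through PP2 alone. All 6 lay below PP2 in all 4 ePP libraries (49.8% of all kept genes did). The median was -2.08 (-1.83 after the GC adjustment). CPB1, a carboxypeptidase precursor, was at 30.2 TPM in PP2, 0.101 and 0.00677 TPM in ePP-P9 and 0.00406 and 0.0284 TPM in ePP-P21. PRSS1 (cationic trypsinogen) was at 60.2 TPM in PP2 and listed at 0 in all 4 ePP libraries, and reads of its near-identical paralogs may be counted with it. Of 14 duct genes 12 were kept, with 6 above PP2 and 6 below. The median was -0.10 (0.17 after the GC adjustment). CFTR, the chloride channel of duct cells, was at 3.0 TPM in PP2, 17.6 and 22.9 TPM in ePP-P9 and 38 and 40.7 TPM in ePP-P21. SLC4A4, the duct bicarbonate transporter, was at 15.1 TPM in PP2 and 52.1 ± 7.75 TPM in the ePPs. SPP1 (osteopontin) went the other way, at 136 TPM in PP2 and 1.47 and 2.39 TPM in ePP-P9 and 2.53 and 3.13 TPM in ePP-P21. TFF3, a trefoil peptide, was at 26 TPM in PP2 and 0.541 ± 0.475 TPM in the ePPs.

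Epithelial junction genes were lower, while KRT8 and KRT18, keratins of simple epithelium, were not. All 16 epithelial genes were kept and 12 lay below PP2, each by over 1 (26.8% of all kept genes did). The median was -2.70 (-1.75 after the GC adjustment). CDH1 (E-cadherin) was at 156 TPM in PP2, 10.9 and 11.5 TPM in ePP-P9 and 14 and 12.3 TPM in ePP-P21. ESRP1, the splicing factor of epithelial isoforms, was at 63.2 TPM in PP2 and 2.4 and 0.528 TPM in ePP-P9 and 1.99 and 0.558 TPM in ePP-P21. GRHL2, which keeps up junction genes, was at 12.2 TPM and at no more than 0.688 TPM in the ePPs. CLDN7, a tight-junction claudin, was at 131 TPM in PP2 and 9.58 ± 1.91 TPM in the ePPs. These 4 genes lay below PP2 in every ePP library. EPCAM, an epithelial surface protein, was at 401 TPM in PP2 and 193 ± 29.8 TPM in the ePPs. In contrast KRT18 was at 1246 TPM in PP2 and 1858 and 1962 TPM in ePP-P9 and 2629.8 and 2639 TPM in ePP-P21. Its partner KRT8 was at 558 TPM in PP2, 720.0 and 1224 TPM in ePP-P9 and 881 and 1337 TPM in ePP-P21. KRT19, a further simple-epithelial keratin counted with the duct markers, was lower, at 1105 TPM in PP2 and at no more than 499 TPM in the ePPs (a difference of -1.28, or -0.21 after the GC adjustment). The neural cadherin CDH2 was at 177 TPM in PP2 and at 144 to 233 TPM in the ePPs, so PP2 lay inside their range. In the β-like cells the epithelial list was not lower as a group, with a GC-adjusted median of 0.016 for ePP-β minus SC-β. After that adjustment 6 of its genes were higher and 5 were lower. ESRP1 itself was lower there, at 1.13 and 0.246 TPM in ePP-β against 8.3 TPM in SC-β. ESRP1 was at 74.4 TPM in hPSC and 38.5 and 32.3 TPM in DMSO.

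Gut genes lay on both sides of PP2. Of 20 stomach and intestine genes 13 were kept, 4 of them through the ePPs alone and 1 through PP2 alone. Of the 13, 7 lay above and 4 below PP2, where 29.6% and 49.8% of all kept genes did. The median was 0.76 (0.90 after the GC adjustment). With a filter of 5 TPM, 7 genes were left and the median was -1.46. CDX2, the intestinal homeobox factor, was at 55.5 TPM in PP2, 95 and 94.2 TPM in ePP-P9 and 94.6 and 95.4 TPM in ePP-P21. TFF1, a gastric trefoil peptide, was at 2.03 TPM in PP2 and 6.87 ± 2.28 TPM in the ePPs. SOX2, a factor of the foregut and stomach and of pluripotent cells, was at 35.1 TPM in PP2 and 1.79 and 2.78 TPM in ePP-P9 and 1.85 and 2.32 TPM in ePP-P21. VIL1 (villin), of brush borders, was at 107 TPM in PP2 and 16 ± 2.62 TPM in the ePPs. CDX2 and TFF1 thus lay above PP2, and SOX2 and VIL1 below it. Markers of earlier stages were low in both groups: POU5F1 and NANOG did not exceed 0.389 TPM in PP2 or any ePP library. LIN28A, an RNA-binding protein that blocks let-7 maturation, was at 276 TPM in PP2 and 63.2 ± 3.73 TPM in the ePPs, opposite in direction to L1TD1, its partner in pluripotent cells, at 4.78 TPM in PP2 and 63.7 and 68.2 TPM in ePP-P9 and 67 and 83 TPM in ePP-P21. SOX17, the endoderm factor, was at 17.3 TPM in PP2 and at no more than 0.0887 TPM in the ePPs. Of the 13 listed definitive endoderm genes 6 were kept, 4 of them through PP2 alone, which had to be lower, and the 6 lay below PP2. Of 14 neural markers 6 were kept, of which 3 lay above and 3 below. DCX, a microtubule protein of young neurons, was at 13.5 TPM in PP2 and 0.953 ± 0.244 TPM in the ePPs.

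**Figure D4:**
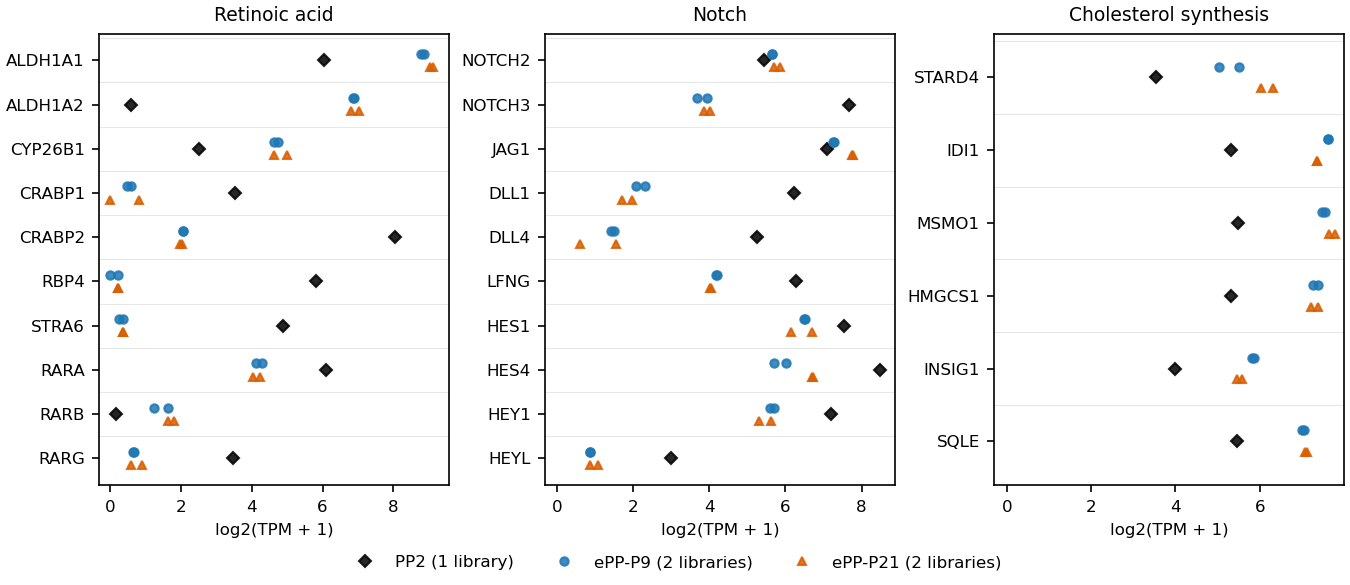
Level on the log2(TPM + 1) scale of members of the retinoic acid, Notch and cholesterol synthesis lists in PP2 (diamonds), ePP-P9 (circles) and ePP-P21 (triangles), with 1 point per library. The retinoid enzymes and cholesterol genes shown lie to the right of PP2, and the retinoid-binding proteins and Notch ligands shown, other than JAG1, to the left.

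The retinoic acid pathway divided in part by role. Of its 17 genes 14 were kept, 4 of them through PP2 alone and 2 through the ePPs alone, with 5 above and 9 below PP2. The 3 kept synthesis genes all lay above it. ALDH1A1, a second retinaldehyde dehydrogenase, was at 64.8 TPM in PP2, 438 and 466 TPM in ePP-P9 and 528 and 551 TPM in ePP-P21, next to ALDH1A2 described above. Of the 2 kept genes of retinoic acid breakdown, 1 lay above PP2 and 1 below. The higher was CYP26B1, at 4.75 TPM in PP2 and 24 and 25.9 TPM in ePP-P9 and 23.8 and 30.8 TPM in ePP-P21. All 5 genes of binding and uptake lay below PP2. CRABP2, which carries retinoic acid to its nuclear receptors, was at 263 TPM in PP2 and 3.14 and 3.19 TPM in ePP-P9 and 2.91 and 3.08 TPM in ePP-P21. RBP4, the retinol carrier of plasma, was at 55.8 TPM in PP2 and at no more than 0.176 TPM in the ePPs. STRA6, its receptor, was at 28.4 TPM and at no more than 0.285 TPM. Making enzymes and carriers thus lay on opposite sides of PP2. Of the 4 nuclear receptors, 3 lay below PP2 by over 1 and 1 lay above. The higher was RARB, itself a classical retinoic acid target, at 0.129 TPM in PP2 and 2.01 ± 0.473 TPM in the ePPs. RARG was at 10.1 TPM in PP2 and 0.636 ± 0.167 TPM in the ePPs. After the GC adjustment ALDH1A1, ALDH1A2 and CYP26B1 differed by 2.67, 6.36 and 2.95, and CRABP2, RBP4 and STRA6 by -5.30, -5.04 and -3.33. In batch 3, ALDH1A2 was at 38.4 and 21.5 TPM in DMSO and 34.7 and 13.3 TPM in I-BET151, so progenitors kept without the BET inhibitor in that batch were also well above PP2.

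Most Notch genes lay below PP2 as deposited. All 19 genes were kept, 3 of them through PP2 alone, 14 lay below PP2 by over 1 (26.8% of all kept genes did) and 4 lay above (29.6% did). The median was -1.43, but -0.34 after the GC adjustment, where 5 of the 19 lay below by over 1, and the list had a median GC content of 60.3%. DLL1, a ligand of the Delta type, was at 73.7 TPM in PP2 and 3.09 ± 0.706 TPM in the ePPs. JAG1, the Jagged ligand of the pancreatic epithelium, was at 135 TPM in PP2, 151 and 155 TPM in ePP-P9 and 212 and 217 TPM in ePP-P21. NOTCH3, a receptor of perivascular cells among others, was at 204 TPM in PP2 and 13.7 ± 1.46 TPM in the ePPs. NOTCH2, a receptor of the pancreatic epithelium, was at 42.2 TPM in PP2 and 51.3 ± 3.59 TPM in the ePPs. JAG1 and NOTCH2 were thus near PP2 and slightly above it, and DLL1 and NOTCH3 far below. The target HES1, which represses NEUROG3, was at 184 TPM in PP2 and 88.4 and 90.5 TPM in ePP-P9 and 69.9 and 103 TPM in ePP-P21. HEY1, another target, was at 146 TPM in PP2 and 46.4 ± 5.53 TPM in the ePPs. The GC-adjusted differences were -2.98 for DLL1, -2.44 for NOTCH3, -0.85 for HES1 and -1.75 for HEY1. In batch 3, HES1 was at 63 and 100.2 TPM in DMSO and 143 and 171 TPM in I-BET151, above DMSO in both pairs.

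Genes fed back by ERK, the kinase that EGF and FGF activate, were split. Of 32 FGF and EGF genes 28 were kept, 11 above and 11 below PP2, where 29.6% and 49.8% of all kept genes lay. The median was 0.03 (0.31 after the GC adjustment). DUSP6, a phosphatase that inactivates ERK, was at 81.8 TPM in PP2, 245 and 264 TPM in ePP-P9 and 191 and 275 TPM in ePP-P21. SPRY2, an inhibitor induced by the pathway, was at 101 TPM in PP2 and 239 and 257 TPM in ePP-P9 and 182 and 251 TPM in ePP-P21. The ligand FGF2 was at 1.23 TPM in PP2 and 5.95 ± 1.28 TPM in the ePPs. These 3 lay above PP2 in all 4 ePP libraries. On the other side, ETV4, an ETS factor downstream of FGF, was at 199 TPM in PP2 and 38.6 ± 5.56 TPM in the ePPs, and the receptor FGFR1 was at 66.2 TPM in PP2 and 23.5 ± 2.63 TPM in the ePPs.

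TGFβ and BMP genes were lower at the level of ligands, targets and antagonists. All 3 kept TGFβ ligands and 8 of 10 kept targets lay below PP2, and 5 of the 19 kept genes of the list had passed through PP2 alone. TGFBI, a matrix protein named for its induction by TGFβ, was at 146 TPM in PP2, 2.92 and 2.94 TPM in ePP-P9 and 2.69 and 1.15 TPM in ePP-P21. SMAD7, an inhibitor that the pathway itself induces, was at 61 TPM in PP2 and 9.7 ± 2.37 TPM in the ePPs. The ligand TGFB1 was at 90.0 TPM in PP2 and 6.24 ± 0.624 TPM in the ePPs. The kept receptors did not share this, with 3 above and 2 below. The list median was -1.06 (-0.92 after the GC adjustment) and -0.27 over all kept genes. For BMP signalling the median was -1.45 (-1.19). Of 24 kept genes 16 lay below (49.8% of all kept genes did), and 6 of the 24 were kept through PP2 alone. The activin antagonist FST (follistatin) was at 28 TPM in PP2 and at no more than 0.213 TPM in the ePPs. BAMBI, a pseudoreceptor that dampens the signal, was at 319.7 TPM in PP2 and 21.6 ± 3.74 TPM in the ePPs. ID2, an immediate BMP target, was at 238 TPM in PP2 and 591 ± 84.8 TPM in the ePPs. The mesenchyme markers without VIM summed to 5484 TPM in PP2 and 804 to 1317 TPM in these ePP libraries, and their part in the TGFβ, BMP, Hedgehog and collagen values was not tested.

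Wnt and Hedgehog lists were lower and lost much of their difference with the GC adjustment. For Wnt, 18 of 22 kept genes lay below (49.8% of all kept genes did), 9 of the 22 had been kept through PP2 alone, which had to be lower, and the median went from -1.31 to -0.44. SP5, a target of β-catenin, was at 36.9 TPM in PP2 and at no more than 0.151 TPM in the ePPs. AXIN2, the feedback target read most often, was at 6.97 TPM in PP2 and 0.583 ± 0.139 TPM in the ePPs. RNF43, which removes Wnt receptors, was at 9.46 TPM in PP2 and 0.666 ± 0.137 TPM in the ePPs. All 3 targets lay below PP2 in every ePP library. The antagonist SFRP5, in contrast, was at 276 TPM in PP2 and 567 and 587 TPM in ePP-P9 and 690.4 and 633 TPM in ePP-P21. For Hedgehog, 10 of 12 kept genes lay below (49.8% of all kept genes did), and 6 of the 12 had been kept through PP2 alone. The list had medians of -1.52 and, after the adjustment, -0.66. HHIP, a ligand-binding target, was at 5.3 TPM in PP2 and at no more than 0.0178 TPM in the ePPs. SMO, the signal transducer, was at 201 TPM in PP2 and 35.1 ± 2.22 TPM in the ePPs. Of the 24 Hippo and YAP genes 15 lay below (49.8% of all kept genes did). The median was -0.66 (-0.60 after the GC adjustment). AXL, a receptor kinase and YAP target, was at 23.4 TPM in PP2 and at no more than 0.224 TPM in the ePPs.

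Growth control genes gave a mixed pattern. MYC was at 14.6 TPM in PP2, 139.7 and 151 TPM in ePP-P9 and 102 and 152 TPM in ePP-P21, with a difference of 3.12 (3.60 after the GC adjustment). In batch 3, MYC was at 105 and 82.1 TPM in DMSO and 175 and 108 TPM in I-BET151, in each case above PP2. MYCN was lower, at 37.7 TPM in PP2 and 13.2 ± 2.46 TPM in the ePPs. BRD2 and BRD3, BET proteins that I-BET151 binds, lay below PP2 in all 4 libraries, with differences of -0.43 and -0.75, which became 0.18 and -0.03 after the GC adjustment. CCND1 (cyclin D1) was at 81.1 TPM in PP2 and 307 and 321 TPM in ePP-P9 and 284 and 323 TPM in ePP-P21. CCND3 was at 58.3 TPM in PP2 and 12 ± 2.06 TPM in the ePPs.

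Several p53 targets were higher. CDKN1A (p21), a brake on cyclin-dependent kinases, was at 36.7 TPM in PP2, 140.0 and 148 TPM in ePP-P9 and 182 and 186 TPM in ePP-P21. RRM2B, a ribonucleotide reductase subunit induced by p53, was at 11.6 TPM in PP2 and 44.4 and 45.3 TPM in ePP-P9 and 60.6 and 63.6 TPM in ePP-P21. MDM2, which targets p53 for breakdown, was at 13.8 TPM in PP2 and 31.8 and 36.1 TPM in ePP-P9 and 57.2 and 70.3 TPM in ePP-P21. All 4 ePP libraries stood above PP2 for each. FAS, a death receptor, was at 1.05 TPM in PP2 and 6.55 ± 2.06 TPM in the ePPs. For CDKN1A, RRM2B, MDM2 and FAS both passage 21 libraries lay above both passage 9 libraries. Of 21 kept genes of the list 9 lay above and 7 below, with a median of 0.11 and of 1.14 after the GC adjustment. CDKN1B (p27), another brake, was lower, at 62.1 TPM in PP2 and 14.1 ± 0.859 TPM in the ePPs. The proliferation lists differed from each other. The S-phase list (43 kept genes) had 23 above and 9 below PP2, where 29.6% and 49.8% of all kept genes did so, with a median of 0.29 (0.16 after the GC adjustment) against -0.27. The G2/M list (54) had 12 above and 30 below with a median of -0.24. After the GC adjustment 38 of the 54 lay below, where 38% of all kept genes did, and the median was -0.40. The DNA replication list (36) had 10 above and 15 below with a median of -0.08 (0.05 after the GC adjustment). Centring on the median of all genes turned the last 2 deposited medians positive (0.12 and 0.29). GMNN (geminin), which prevents re-replication, was at 103 TPM in PP2 and 406 ± 36.7 TPM in the ePPs. MCM5, a subunit of the replication helicase, was at 136 TPM in PP2 and 30.6 ± 2.7 TPM in the ePPs.

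Sterol synthesis genes were higher in the ePPs as a group. All 25 genes of cholesterol synthesis and its control were kept, 21 lay above PP2 in all 4 libraries against 29.6% of all kept genes, and 14 did so by over 1 against 8.32%. The median was 1.11 (1.46 after the GC adjustment, when 24 lay above and 18 by over 1). HMGCS1, an early enzyme of the pathway, was at 39.1 TPM in PP2 and 152 and 165 TPM in ePP-P9 and 148 and 166 TPM in ePP-P21. MSMO1, which removes methyl groups from later intermediates, was at 44.1 TPM in PP2, 177 and 188 TPM in ePP-P9 and 200.5 and 219 TPM in ePP-P21. The 4 ePP libraries were close to each other for both. IDI1, an isoprenoid isomerase, was at 38.9 TPM in PP2 and 179 ± 18.9 TPM in the ePPs. STARD4, a carrier of cholesterol, was at 10.6 TPM in PP2 and 31.9 and 44.5 TPM in ePP-P9 and 64.5 and 78.1 TPM in ePP-P21, with both passage 21 libraries above both passage 9 libraries. INSIG1, which holds SREBP in the endoplasmic reticulum, was at 15 TPM in PP2 and 50.6 ± 7.04 TPM in the ePPs. In the β-like cells of the same 2 batches the list went the other way, with a GC-adjusted median of -0.71. In hPSC and DE, the other batch 1 stages, HMGCS1 was at 69.8 and 116 TPM, against 39.1 TPM in PP2.

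The start regions of these genes shared a sequence feature that the comparison did not use. The CCAAT box, read on both strands as CCAAT or ATTGG, is bound by the factor NF-Y, which is known to act beside the sterol-regulated factor SREBP2. It was present within 250 bases before to 50 after the start in 15 of the 18 list genes with a RefSeq promoter (83.3%). The share was 36.4% of 10889 kept protein-coding genes, 39.4% of the higher genes and 31.1% of the lower genes. This box was not the only short motif searched. A GC-rich motif was in 17 of the 18 promoters (94.4%), against 69.9% of the kept protein-coding genes. The remaining motifs were in 2 and in 3 of the 18. The 3 genes of the list that lay below PP2 were MVK, PMVK and MVD, and the promoters of MVK and MVD also held CCAAT, so the box did not follow the direction. After the GC adjustment those 3 differences were positive (0.57, 0.29 and 0.88). The 250 bases before the start are printed for the 3 genes with the largest differences among those with such a match (RefSeq, GRCh38.p14), with the box in capitals. The STARD4 region is chr5:111512536-111512785 on the minus strand, the MSMO1 region chr4:165327419-165327668 on the plus strand and the HMGCS1 region chr5:43313413-43313662 on the minus strand.
STARD4: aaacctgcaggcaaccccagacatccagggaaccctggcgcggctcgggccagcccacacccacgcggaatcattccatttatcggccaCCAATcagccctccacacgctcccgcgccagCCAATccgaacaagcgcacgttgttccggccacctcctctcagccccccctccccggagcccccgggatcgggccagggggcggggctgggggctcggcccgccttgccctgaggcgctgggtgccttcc
MSMO1: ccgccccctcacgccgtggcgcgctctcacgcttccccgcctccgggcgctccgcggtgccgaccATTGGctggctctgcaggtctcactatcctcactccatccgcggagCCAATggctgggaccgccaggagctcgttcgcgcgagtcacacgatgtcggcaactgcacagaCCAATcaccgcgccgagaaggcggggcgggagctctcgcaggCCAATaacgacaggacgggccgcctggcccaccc
HMGCS1: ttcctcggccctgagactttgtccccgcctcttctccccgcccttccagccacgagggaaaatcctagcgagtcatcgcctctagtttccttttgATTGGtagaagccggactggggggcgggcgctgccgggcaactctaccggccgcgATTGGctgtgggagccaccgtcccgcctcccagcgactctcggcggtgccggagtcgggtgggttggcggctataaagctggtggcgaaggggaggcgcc
They held 2, 4 and 2 such boxes, and a match of letters is no evidence that a factor was bound.

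Fatty acid genes were higher as well, and other metabolic lists stood closer to the median. Of 11 kept genes of fatty acid synthesis 8 lay above and 2 below, with a median of 0.75 (0.91 after the GC adjustment). SCD, the desaturase that makes oleate, was at 148 TPM in PP2, 752 and 744 TPM in ePP-P9 and 674 and 742 TPM in ePP-P21. FADS1, a desaturase of longer chains, was at 58.3 TPM in PP2 and 202 ± 12.2 TPM in the ePPs. Glycolysis (20 kept) had 6 above and 9 below, where 29.6% and 49.8% of all kept genes lay, with a median of 0.13. After the GC adjustment 13 lay above and 6 below, where 37.5% and 38% of all kept genes did. The adjusted median was 0.33. Oxidative phosphorylation (77 kept, nuclear genes only) had 42 above and 25 below with a median of 0.24 (0.31 after the GC adjustment). The 37 mitochondrially encoded genes could not be read, since each library lists them at 0. SLC16A3, the lactate exporter, was at 27.8 TPM in PP2 and 2.18 ± 0.615 TPM in the ePPs. SLC2A3, a high-affinity glucose transporter and hypoxia gene, was at 89.7 TPM in PP2 and at no more than 0.97 TPM in the ePPs. NDRG1, another hypoxia gene, was at 18.5 TPM in PP2 and 55.1 and 55.1 TPM in ePP-P9 and 71.1 and 78.9 TPM in ePP-P21.

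Interferon-stimulated and antigen-presentation genes were lower. Of 33 genes 23 were kept, 7 through PP2 alone. Of the 23, 20 lay below PP2 and 1 above, where 49.8% and 29.6% of all kept genes did. The median was -1.03 (-0.47 after the GC adjustment). HLA-B, a classical class I heavy chain, was at 202 TPM in PP2, 4.6 and 4.85 TPM in ePP-P9 and 9.03 and 9.32 TPM in ePP-P21. It shares sequence with the other class I genes. BST2 (tetherin), which holds back virus release, was at 60.4 TPM in PP2 and 0.192 and 0 TPM in ePP-P9 and 0 and 0.454 TPM in ePP-P21. IFITM1, a membrane protein that blocks virus entry, was at 43.3 TPM in PP2 and 2.92 ± 0.837 TPM in the ePPs, and at 1063 TPM in hPSC. IFITM3, its close relative, was at 456 TPM in PP2 and 44.7 ± 7.06 TPM in the ePPs, and at 831 TPM in hPSC.

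Most kept collagen genes lay below PP2 as deposited. Of 44 collagen genes 31 were kept, 8 through PP2 alone, with 22 below PP2 (49.8% of all kept genes lay below) and 2 above, and a median of -1.56. After the GC adjustment 16 lay below and 8 above, where 38% and 37.5% of all kept genes did, and the median was -0.67. COL1A2, a chain of collagen I, was at 165 TPM in PP2, 6.55 and 7.4 TPM in ePP-P9 and 10.9 and 10.1 TPM in ePP-P21. COL6A3 was at 16.7 TPM in PP2 and at no more than 0.065 TPM in the ePPs. Among integrins and laminins, which bind and build the basement membrane, ITGA6 was at 29.9 TPM in PP2 and 72 and 78.8 TPM in ePP-P9 and 100.0 and 97.7 TPM in ePP-P21. ITGA3, another laminin receptor, was at 45.8 TPM in PP2 and 3.58 ± 0.467 TPM in the ePPs. LAMB3, a chain of laminin 332, was at 6.87 TPM in PP2 and at no more than 0.0657 TPM in the ePPs.

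Of 39 HOX genes, which set position along the body axis, 16 were kept, 5 through the ePPs alone and 3 through PP2 alone, which fixed the side of their mean differences. In all, 8 lay above PP2 and 6 below, where 29.6% and 49.8% of all kept genes did so, and the median was 0.59 (1.5 after the GC adjustment). HOXA3, an anterior gene of the HOXA cluster, was at 2.02 TPM in PP2, 12.7 and 8.65 TPM in ePP-P9 and 16.3 and 17.2 TPM in ePP-P21. HOXA5, of the same cluster, was at 0.114 TPM in PP2 and 13.4 ± 2.35 TPM in the ePPs. HOXB6 went the other way, at 13.6 TPM in PP2 and 0.746 and 0.629 TPM in ePP-P9 and 1.02 and 0.828 TPM in ePP-P21, and HOXB7 was at 10.3 TPM in PP2 and 1.75 ± 0.244 TPM in the ePPs. The clusters hold overlapping and antisense transcripts such as HOTAIRM1, and the use of strand in the counting is not stated, so reads of neighbours cannot be told apart.

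Most listed noncoding RNAs and ribosomal protein genes were higher. Of 13 kept long noncoding RNAs of the list 10 lay above PP2, with a median of 1.37 (1.11 after the GC adjustment). GAS5, a host gene of small nucleolar RNAs, was at 137 TPM in PP2 and at 306 to 527 TPM in the ePPs. NEAT1, the scaffold of paraspeckles, was at 0.647 TPM in PP2, 3.01 and 4.23 TPM in ePP-P9 and 31.5 and 97 TPM in ePP-P21. MALAT1, a nuclear speckle RNA, was at 26.7 TPM in PP2, 33.8 and 43.3 TPM in ePP-P9 and 125 and 202 TPM in ePP-P21. For these 2 the passage 21 libraries stood well above the passage 9 libraries. Of 77 kept ribosomal protein genes 66 lay above PP2, with a median of 0.94 (1.16 after the GC adjustment). The libraries of hPSC and DE, in the batch of PP2, gave ribosomal protein genes 19.7% and 20.0% of the listed TPM, close to the ePPs, while PP2 and SC-β stood at 10.3% and 9.15%. Small nucleolar RNA genes were higher by over 1 for 46.1% of 228 kept, against 8.32% of all kept genes.

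Of 17 kept imprinted genes 12 lay below PP2, 4 of the 17 having been kept through PP2 alone, and of 9 kept oncofetal genes 6 lay below, where 49.8% of all kept genes did. The medians were -0.83 and -0.53, or -0.48 and -0.30 after the GC adjustment. IGF2, a growth factor of fetal tissue, was at 3178 TPM in PP2 and 4564 and 3834 TPM in ePP-P9 and 3309 and 3426 TPM in ePP-P21, and with quantile normalization its difference changed sign. IGF2BP3, an RNA-binding partner of its transcript, was at 39.9 TPM in PP2 and 56.2 ± 4.28 TPM in the ePPs.

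**Figure D5:**
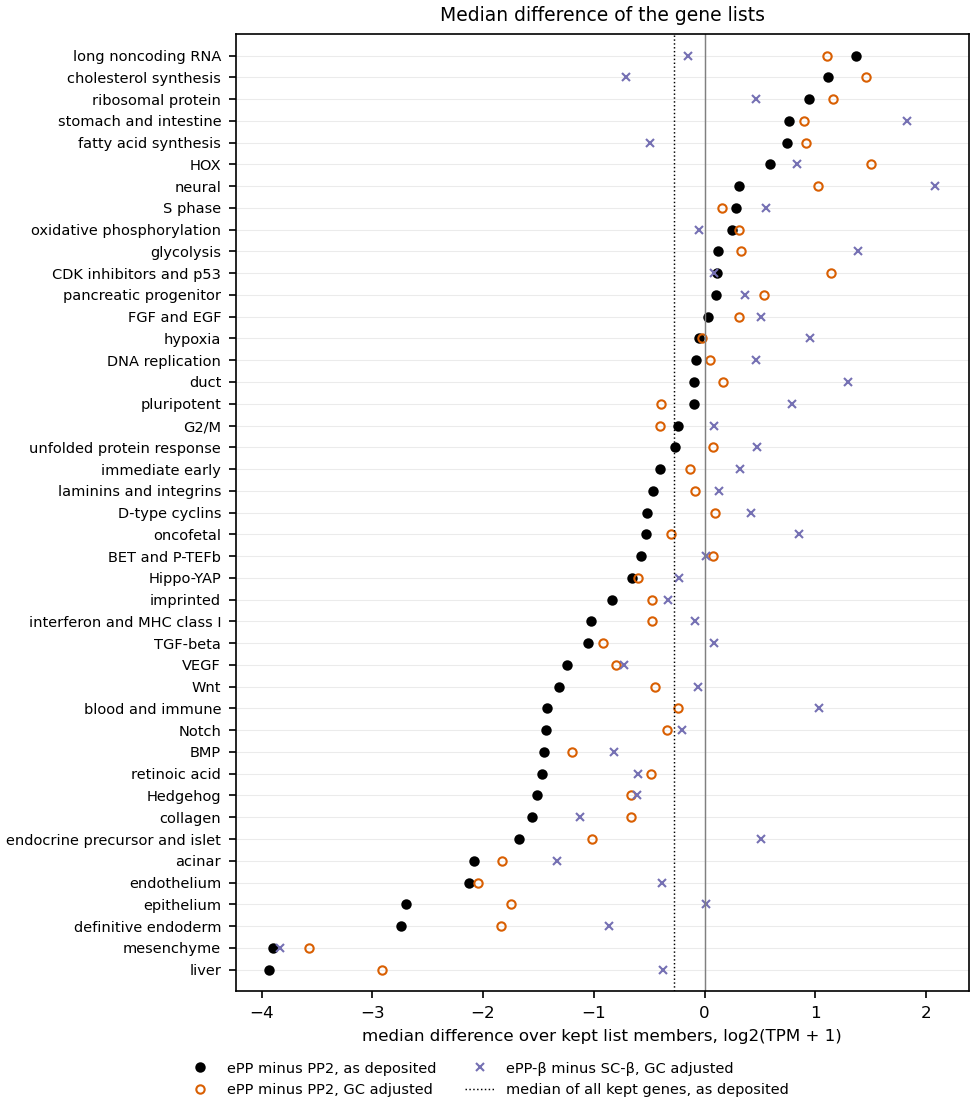
Median difference on the log2(TPM + 1) scale over the kept members of 43 gene lists for ePP minus PP2 as deposited (filled) and GC adjusted (open), and for ePP-β minus SC-β GC adjusted (crosses). Liver and mesenchyme lie furthest left (-3.93 and -3.89) and long noncoding RNA and cholesterol synthesis furthest right (1.37 and 1.11), against a median of -0.27 over all kept genes (dotted line).

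The called genes differed from the rest in base composition and place. The median GC content was 42.9% for the higher and 58.4% for the lower protein-coding genes, against 49.6% for all that were kept. Of the genes highest in GC content, the last of 5 equal groups, 66.7% were lower by over 1 and 1.01% were higher. By chromosome the GC-rich chromosome 19 had the largest share of lower genes, 48.2% of 1016, and chromosome 13 the smallest, 13.5% of 237. Exonic length varied less, with medians of 5359 and 4631 bases for higher and lower genes and 5117 for all.

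The passages were also compared with each other, by a stricter rule than that used against PP2. It asked for a gap of over 1 between their nearest libraries, so its shares cannot be set against those above. Both passage 21 libraries lay above both passage 9 libraries by over 1 for 212 genes (1.17%) and below by over 1 for 18 (0.0993%). Of the 212, 35 were among the genes higher than PP2, 39 among the lower genes, and 119 had ePP libraries on both sides of PP2.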

How the data were processed

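RNA from cultures of the MEL1 line was sequenced as 14 libraries, and 5 libraries entered the comparison (PP2, 1; ePP-P9, 2; ePP-P21, 2). Groups, passages and batches came from the sample labels. The deposited values are TPM per gene, which the authors made by aligning reads to the human genome (HISAT2 2.1.0 and hg38, per the submitters' processing notes) and estimating abundance with StringTie. Neither the annotation release nor a strand setting is given in the sources used here. Of 60624 identifiers 60370 matched GENCODE release 44, which supplied biotype, position, length and GC content.

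TPM were put on the log2(TPM + 1) scale with Python 3.11.15 and pandas 2.3.3, and genes with 1 TPM or more in PP2 or in the ePP mean were kept. A gene was called higher or lower where all 4 ePP libraries lay on the same side of PP2 and the mean difference passed 1. PP2 had 1 library in another batch, so no test was made. Depth is unknown for TPM, so no counting interval is given. Summed listed TPM were 908685 to 950752 in the 5 libraries.

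Named were the 15 genes furthest from PP2 in each direction (protein-coding or long noncoding, 10 TPM or more on the higher side), up to 6 members per list with the largest differences (5 TPM or more), members whose absence informs, and 10 endocrine and progenitor factors whatever their values. Some genes that the rule names are not reported here. Members and lists were chosen with earlier results of these data known. ACTA2, AXIN2, BRD2, BRD3, CDH2, CYP26B1, EPCAM, HES1, HEY1, ID2, IGF2, INSIG1, JAG1, KRT8, KRT18, KRT19, MVD, MVK, PMVK, NOTCH2, PDGFRA, RARB, RARG, SFRP5, SPRY2 and VIM were named after their values were seen. S-phase and G2/M lists are those distributed with Seurat 5.3.0. Promoters are from RefSeq (GRCh38.p14) and were searched on both strands for several short motifs. Alternatives were other pseudocounts, filters and scalings, a stricter difference, single passages, each ePP library left out, and the GC adjustment.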

Additional observations from a re-analysis of the deposited data

Results flagged for a closer look

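In 13 of 172 named genes, a single ePP library stood apart from the other 3, by a gap that took up most of the range of the 4 (Dixon's criterion at 95%). Chance alone flags about 1 in 20 groups. The library ePP-P21 replicate 1 was the odd one for 8 genes. It was the high one for COL3A1 (36.0 TPM, others 24.7 to 26.0), COL6A2 (3.29 TPM, others 0.294 to 0.445), DCN (0.14 TPM, others 0.012 to 0.0198), LUM (1.38 TPM, others 0.447 to 0.537) and MEIS3 (0.436 TPM, others 0.182 to 0.208). LRRC61 was at 0.00199 TPM there and listed at 0 in the other 3. The same library was the low one for FOXA2 (67.5 TPM, others 88.3 to 91.5) and SCD (674 TPM, others 742 to 752). In ePP-P21 replicate 2, MDFI (0.221 TPM, others 0.912 to 1.0) and TGFBI (1.15 TPM, others 2.69 to 2.94) were low. In ePP-P9 replicate 1, PDGFRA was high (1.35 TPM, others 0.152 to 0.355) and STRA6 was low (0.182 TPM, others 0.277 to 0.285). RBP4 was listed at 0 in ePP-P9 replicate 2 and at 0.166 to 0.176 TPM in the others. In each of these genes the odd library lay on the same side of PP2 as the other 3.

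The passages lay on opposite sides of PP2 in 3 results, and the difference between them was not tested. CDH2 was at 177 TPM in PP2, below it in both ePP-P9 libraries and above it in both ePP-P21 libraries, with a range of 144 to 233 TPM. The median difference of the FGF and EGF list was 0.48 higher in ePP-P21 than in ePP-P9, over library medians of -0.19 to 0.41. That of the CDK inhibitor and p53 list was 0.44 higher in ePP-P21, over library medians of -0.22 to 0.30.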

How the results depend on the processing

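The count of higher genes (1508) became 3013 with median centring, 3346 with quantile normalization and 229 with a difference beyond 2. The count of lower genes (4855) became 3119 with quantile normalization, 1679 beyond 2 and 2631 with the GC adjustment. Higher genes were 23.7% of all calls as deposited and 41.8% after the GC adjustment, chosen after seeing the data. With 1 ePP library left out the counts ran from 1366 to 1669 and from 4718 to 5042. Of the 19 list medians beyond 1, 15 kept their sign under every alternative run. Requiring 1 TPM in at least 2 of the 5 libraries drops genes seen only in PP2 and gave 0.62 for the endocrine, 0.27 for the blood and 0.089 for the retinoic acid list. Rescaling to protein-coding genes gave -0.53 for the long noncoding list, of which 1 gene was left. All 149 named genes beyond 1 kept their sign under every alternative that could be run for them. Many of these had been named for large differences. For a gene with all ePP libraries on the same side of PP2, pseudocounts, filters and left-out libraries could not change the sign. Of the 23 named genes within 1, 10 changed sign under some alternative (BRD2, CDH2, IGF2, MVD, MVK, NANOG, NEUROD1, NKX2-2, PDX1 and PMVK). No paired analysis was possible because the results come from no test and PP2 has 1 library. Unknown depth and the lone PP2 library limit all values, and the spread of PP2 is not known.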

Other observations

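Immediate early genes, which respond within minutes to growth factors, stress or handling, were read as another list. Of 19 kept genes 11 lay below PP2 in all 4 ePP libraries (49.8% of all kept genes did) and 3 lay above, with a median of -0.40 (-0.13 after the GC adjustment) against -0.27 over all kept genes. After that adjustment 6 lay below and 5 above. JUND, an AP-1 subunit, was at 1125 TPM in PP2, 177 and 185 TPM in ePP-P9 and 198 and 232 TPM in ePP-P21. KLF2, a zinc-finger factor best known from endothelium, was at 24.6 TPM in PP2 and at no more than 0.737 TPM in the ePPs, and NR4A1, an orphan nuclear receptor, was at 51.2 TPM in PP2 and 4.51 ± 2.44 TPM in the ePPs. For ePP-β minus SC-β the GC-adjusted median of the list was 0.32. JUND and NR4A1 were also lower in ePP-β (123 and 125 TPM and 2.96 and 2.16 TPM) than in SC-β (281 TPM and 17.2 TPM). IER3 was an exception, at 23.1 TPM in PP2 and 74.4 ± 10.2 TPM in the ePPs.

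VEGF genes were mostly lower beside the endothelial markers. Of 9 kept genes of the VEGF list, 3 of them kept through PP2 alone, 7 lay below PP2 and FLT1 alone lay above. NRP2, a coreceptor of VEGF and semaphorins, was at 27.3 TPM in PP2 and at no more than 1.51 TPM in the ePPs. PGF (placental growth factor) was at 45.5 TPM in PP2, 6.25 and 6.15 TPM in ePP-P9 and 5.91 and 6.25 TPM in ePP-P21.

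Genes that set batch 2 apart were counted. Of the 1508 higher genes, 231 (15.3%) had all 6 libraries of batch 2 (ePPs and ePP-β) above all 8 libraries of batches 1 and 3, and 7 of them had a gap of over 1 on the log2 scale. Of the 4855 lower genes, 247 (5.09%) had all 6 below, 24 of them by over 1. Among these 24 were MDFI, MMP2, LRRC61 and ESRP1 described above. The rule that called the higher and lower genes had already put every ePP library beyond PP2, so part of this separation was built in. The same shares were not counted over all kept genes, so whether 15.3% or 5.09% is unusual was not tested. Batch 2 holds only ePPs and cells made from them, so batch and origin cannot be told apart.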
